A study of Mus musculus with 6 samples.

Results

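The accessible chromatin of Nkx2-5 lineage nuclei was compared with that of PCM1 positive nuclei from the hearts of mice at postnatal day 1. The members are the 2 Myc and the 2 PCM1 libraries among the 6 libraries of the series. Their 4 peak lists were merged with bedtools into 147517 regions, where all 6 lists gave 169872. The question is how the chromatin map of the Nkx2-5 lineage, which holds several cell types, differs from that of nuclei selected for PCM1.

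Omni-ATAC-Seq, in which the Tn5 transposase inserts sequencing adapters into open chromatin, was carried out on 50000 nuclei per library after a 2.2 M sucrose cushion, with 2 biological replicates per group. The dense cushion was chosen to keep cardiomyocyte nuclei and to leave out nuclei of the other cell types, so markers of those types bear on nuclei it should largely have removed from all libraries. The number of hearts per library is not given in the sources used here. The Myc group came from hearts that were Nkx2-5 Cre/+ and R26RSun1-Myc-Egfp/+. Cre, expressed from the Nkx2-5 locus, removes a stop cassette, and a CAG-driven fusion of the nuclear envelope protein Sun1 with GFP and Myc tags is then made in every descendant of a cell that once expressed Cre. These nuclei were pulled down with a Myc antibody by magnet-assisted nuclei immunoprecipitation (MAN-IP). The PCM1 group came from hearts labelled WT, and its nuclei were pulled down with an antibody against PCM1, a protein of the centriolar satellites. The Input group is nuclei of hearts labelled wildtype with no antibody step, and its 2 libraries are given only for reference. By the labels, antibody and genotype differ together between the Myc and PCM1 groups, so the effects of the nuclei selected and of the transgenic line cannot be told apart. Myc below is the group of libraries unless it is called the Myc gene.

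Nkx2-5 is a homeobox transcription factor of the early cardiac progenitors. Its lineage gives cardiomyocytes, parts of the endocardium and endothelium, and smooth muscle. In cardiomyocytes PCM1 is known to gather at the surface of the nucleus, and it serves as a marker of cardiomyocyte nuclei, while in most other cells it lies around the centrosome. Promoters of broadly used genes are open in most cell types, whereas enhancers, which lie in introns and between genes, are open mainly in the cell types that use them. CTCF binds a long motif, holds chromatin loops together with cohesin, and leaves a strong accessible site at many of its positions.

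The lists held 107216 and 108513 peaks in Myc replicates 1 and 2, and 83139 and 81487 in PCM1 replicates 1 and 2. The genome-wide background solved from the peak values was 1.44 and 1.44 tags per position in Myc, and 0.977 and 0.903 in PCM1, so the Myc libraries were deeper. The transgene carries Sun1 coding sequence, so the coding exons of Sun1 give a check of the labels. Peak summits on coding exons of Sun1 numbered 4 and 4 in Myc, 3 and 7 in PCM1, and 0 and 0 in Input. The PCM1 libraries, labelled WT, go against their label in this measure, and its source was not tested. Since both PCM1 libraries show it, no comparison could be made without them. Whether the groups differ in genotype as labelled is therefore in doubt. The scores of the 2 Myc libraries correlated over the shared regions with Pearson's r = 0.895, those of the 2 PCM1 libraries with 0.846, and those of libraries of different groups with 0.767 to 0.777, all across regions, which are not independent replicates.

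The sequences of 5 regions that the results turn on are shown here, each as 200 bases around the summit of the peak, from the plus strand of the mm10 reference. Capitals mark matches to the motifs that were searched on both strands. The region nearest to Ppp6c, at chr2:39373178-39373377, had the largest difference toward Myc in list percentile among called regions over 3 kb from a protein-coding TSS. It holds no match to these motifs, but the reverse complement of its bases gccaccttgtgg matches the wider form of the CTCF motif used further below. That form was chosen after the data were seen. The region nearest to Cysltr2, at chr14:72983542-72983741, holds the CTCF core, which overlaps CAGCTG by the last base of that E-box, besides TGACAG (MEIS), TGANTCA (AP-1), CCGGAAG (ETS, promoter form) and a second CAGCTG. The region nearest to Parva, at chr7:112400216-112400415, had a peak in both Myc libraries and in neither PCM1 library, and holds the CTCF core, TNAAGTG (NKX2-5), CAGGAAG (ETS, ERG form), TGTGGTT (RUNX) and a steroid receptor motif. The region inside Myh6, at chr14:54960036-54960235, had the largest difference toward PCM1 in list percentile among called regions over 3 kb from a protein-coding TSS, and holds CCAATCA (NFY). The region nearest to Col19a1, at chr1:24613003-24613202, was the strongest with a peak in both PCM1 libraries and in neither Myc library, and holds the GATA motif, AGATAA.
Ppp6c: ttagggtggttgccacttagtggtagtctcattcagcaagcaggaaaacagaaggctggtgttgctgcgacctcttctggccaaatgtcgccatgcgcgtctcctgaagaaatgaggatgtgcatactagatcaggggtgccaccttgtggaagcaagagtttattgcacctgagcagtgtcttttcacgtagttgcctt
Cysltr2: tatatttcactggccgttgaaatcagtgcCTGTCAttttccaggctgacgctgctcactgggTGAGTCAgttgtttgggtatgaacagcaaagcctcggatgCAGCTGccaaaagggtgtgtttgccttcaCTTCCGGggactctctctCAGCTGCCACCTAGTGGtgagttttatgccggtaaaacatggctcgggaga
Parva: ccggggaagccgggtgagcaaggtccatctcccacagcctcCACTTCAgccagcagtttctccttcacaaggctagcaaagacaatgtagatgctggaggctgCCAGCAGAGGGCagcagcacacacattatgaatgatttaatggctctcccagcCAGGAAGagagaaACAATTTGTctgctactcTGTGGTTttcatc
Myh6: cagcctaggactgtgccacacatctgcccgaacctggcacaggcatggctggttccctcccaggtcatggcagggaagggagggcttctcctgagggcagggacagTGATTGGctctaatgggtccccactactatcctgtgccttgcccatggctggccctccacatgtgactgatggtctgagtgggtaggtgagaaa
Col19a1: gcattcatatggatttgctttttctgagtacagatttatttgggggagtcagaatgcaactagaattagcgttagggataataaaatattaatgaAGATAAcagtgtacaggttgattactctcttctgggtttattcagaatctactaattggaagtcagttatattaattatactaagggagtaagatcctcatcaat

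Promoters made up a larger share of the regions that ranked higher in Myc than of those that ranked higher in PCM1. Of the 147517 regions, 54069 had a peak in all 4 libraries and are called shared. Each library's -log10 q-values were ranked over the shared regions, the ranks were turned into normal scores, and the scores were compared by limma with Benjamini-Hochberg adjustment. At an adjusted p under 0.05, 4373 shared regions (8.09%) were higher in Myc and 4003 (7.40%) were higher in PCM1. The median difference of the group means was 22.9 points of rank percentile among the shared regions for those higher in Myc, and 19.1 points for those higher in PCM1. Ranked by the fold over the local background in place of -log10 q, 893 regions were higher in Myc and 386 in PCM1. Without Myc replicate 1 the counts were 1877 and 2582, and without Myc replicate 2 there were 2337 higher in Myc. The calls rest on a spread that limma pools over regions of like strength. Without the mean-variance trend no region passed, the lowest adjusted p was 0.139, and 12485 regions had an unadjusted p under 0.05, against 16270 with the trend. An exact permutation test of 2 against 2 libraries cannot go below p = 0.33.

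Presence of a peak was less even. Both Myc libraries and neither PCM1 library had a peak in 14912 regions (10.1%), and both PCM1 libraries and neither Myc library in 1895 (1.28%). The other 76641 regions had a mixed pattern. With the strongest 81487 peaks of each library, merged into 121254 regions, 7325 (6.04%) were of Myc only and 4279 (3.53%) of PCM1 only. Regions of 1 group were weak, with median folds over the local background of 5.33 and 5.34 in the Myc libraries for Myc only, and of 4.55 and 4.72 in the PCM1 libraries for PCM1 only. No peak means that none was detected at that depth. Input replicates 1 and 2 had a peak in 77.3% and 27.7% of the Myc only regions and in 75.0% and 27.0% of the PCM1 only regions.

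A promoter was taken as 3 kb to either side of any transcription start site (TSS). Promoters were 73.3% of the regions higher in Myc, 38.8% of those higher in PCM1 and 38.8% of the shared regions that were not called. The gap narrowed to 61.3% against 42.8% with the GC correction and to 50.7% against 47.1% on the log2 fold, and over all alternatives the shares ran from 50.7% to 87.8% for Myc and from 27.1% to 47.1% for PCM1. Introns were 9.60% of the regions higher in Myc and 35.6% of those higher in PCM1. Distal intergenic regions were 13.4% and 17.4%. Read the other way, of 22474 shared regions in promoters, 3207 (14.3%) were higher in Myc and 1555 (6.92%) in PCM1. Of 31595 shared regions outside promoters, 1166 (3.69%) were higher in Myc and 2448 (7.75%) in PCM1. Among introns alone, 2.61% of 16107 were higher in Myc and 8.85% in PCM1.

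**Figure D1:**
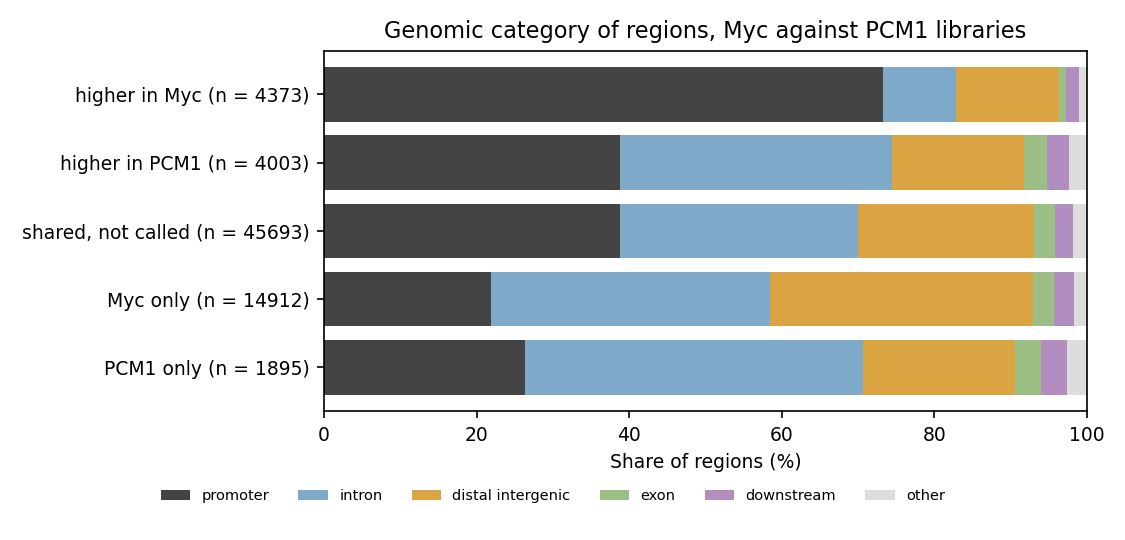
Share of regions (x axis, percent) in each genomic category, for the 5 classes of regions named on the y axis with their numbers. The promoter part of the top bar, regions higher in Myc, is 73.3%, while in the bar of regions higher in PCM1 it is 38.8% and the intron part is 35.6%.

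The called promoters also differed in composition. The 200 bases around the summit had a median GC content of 64.0% in promoters higher in Myc and 58.0% in promoters higher in PCM1. The observed over expected ratio of CpG had a median of 0.872 in the former and 0.270 in the latter, beside 0.529 in promoters not called. Outside promoters the order of the GC content was the reverse, with 51.0% in regions higher in Myc and 54.5% in those higher in PCM1. When the GC content was taken out of the scores of each library, 1545 regions were higher in Myc and 1773 in PCM1. Calls were commoner among strong regions. In the weakest of 10 equal bins of the shared regions 1.28% were higher in Myc and 1.24% in PCM1, and in the strongest bin 17.2% and 18.6%.

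In the regions higher in Myc, the median fold over the local background was 16.0 and 16.0 in the Myc libraries and 9.06 and 9.11 in the PCM1 libraries. It was 14.8 and 12.4 in Input. In the regions higher in PCM1, it was 10.1 and 10.5 in Myc, 12.6 and 13.0 in PCM1, and 13.9 and 12.5 in Input. The 2 Myc libraries lay close to each other in both sets, as did the 2 PCM1 libraries, while the 2 Input libraries differed in depth and in these medians.

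Of the 961 shared regions on chromosome X 50 (5.20%) were higher in Myc and 42 (4.37%) in PCM1.

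CTCF motifs were common in the regions outside promoters that ranked higher in Myc. The CTCF core was found in 264 of the 1166 such regions (22.6%), in 11 of the 2448 higher in PCM1 (0.449%), in 4.31% of those not called and in 3.68% of all 104514 regions outside promoters. Of the 1480 shared regions outside promoters with the core, 264 (17.8%) were higher in Myc and 11 (0.743%) in PCM1, against the background of 3.69% and 7.75% given above. Presence gave the same order. Of 3851 regions outside promoters with the core, 937 (24.3%) were of Myc only and 6 (0.156%) of PCM1 only.

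The median rank percentile among the shared regions was 55.1 and 54.4 in Myc, 37.0 and 34.8 in PCM1, and 43.8 and 45.0 in Input for the 1480 regions with the CTCF core outside promoters. Over all shared regions outside promoters it was 39.8 and 40.3 in Myc, 41.1 and 41.1 in PCM1, and 40 and 40.4 in Input. The CTCF regions thus sat above the overall median in both Myc and both Input libraries, and below it in both PCM1 libraries. A peak was present at 89.7% and 89.3% of the 3851 regions in Myc, 50.5% and 50.3% in PCM1, and 83.7% and 54.9% in Input.

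The same order was seen in each of 4 bins of GC content. Between 40 and 50% GC, 20.5% of 453 regions with the core were higher in Myc, against 3.12% of those without it, and between 50 and 60% GC 16.1% of 903 against 2.70%. A wider form of the motif was chosen after the data were seen. The core or the wider form was in 32.2% of the regions higher in Myc and 0.613% of those higher in PCM1. It was in 6.42% of the regions not called and 6.1% of all regions outside promoters. Over the alternatives, the share with the core ran from 18.1% to 28.3% for regions higher in Myc and from 0.185% to 0.578% for those higher in PCM1.

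The MEF2 motif was commoner in regions higher in PCM1. MEF2 factors, which drive muscle genes, have an A/T-rich motif that was found in 2166 shared regions outside promoters. Of these regions 34 (1.57%) were higher in Myc and 197 (9.10%) in PCM1, against the background of 3.69% and 7.75%. Their median rank percentile among the shared regions was 43.8 and 44.8 in Myc, 47.7 and 48.1 in PCM1, and 47.1 and 46.2 in Input. The motif was present in 8.05% of the regions higher in PCM1, 2.92% of those higher in Myc, 6.92% of those not called and 4.77% of all regions outside promoters. Presence of a peak did not follow this order, with the motif in 4.29% of the Myc only and 3.36% of the PCM1 only regions outside promoters. Over the alternatives the share ran from 6.32% to 12.3% for regions higher in PCM1, the latter with the GC correction, and from 1.18% to 4.16% for those higher in Myc, with 1.75% without Myc replicate 1 and 1.18% without Myc replicate 2. Among regions of 50 to 60% GC, 18.1% of the 652 with the MEF2 motif were higher in PCM1, against 9.43% of those without it. Below 40% GC 0.746% of the 134 with the motif were higher in PCM1, against 0.917% of those without it.

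The estrogen-related receptors (ERR) are nuclear receptors that drive mitochondrial and fatty acid oxidation genes. Of 266 shared regions outside promoters with the ERR motif, 0 were higher in Myc and 28 (10.5%) in PCM1. Their median rank percentile among the shared regions was 34.9 and 34.6 in Myc, 44.6 and 43.5 in PCM1, and 37.4 and 36.9 in Input. Among the 23 motifs outside promoters this was the widest gap of medians toward PCM1. Of 7284 regions with the MEIS letters TGACAG, 178 (2.44%) were higher in Myc and 726 (9.97%) in PCM1. MEIS proteins are homeobox partners of cardiac and HOX factors. Of 4257 with the GATA letters AGATAA, 85 (2.00%) and 365 (8.57%) were, a share close to the background of 7.75% in the direction of PCM1. The NKX2-5 letters TNAAGTG gave 3.05% and 8.07% of 3604, also close to the background, and the AP-1 letters TGANTCA gave 3.38% and 5.79% of 2987.

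**Figure D2:**
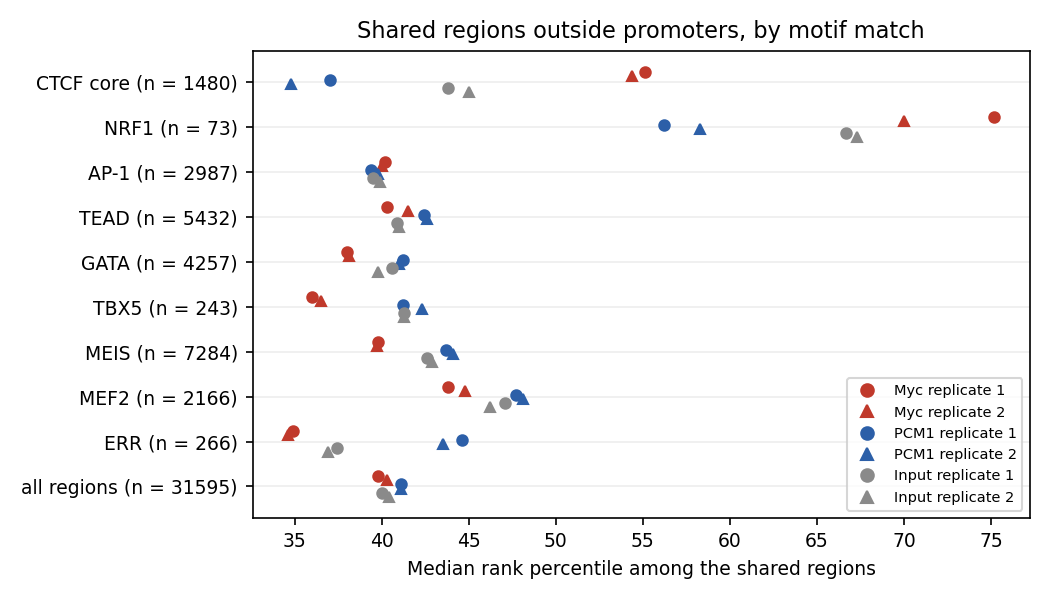
Median rank percentile among the shared regions (x axis) of shared regions outside promoters that hold each motif (y axis, with the number of regions), 1 point per library. For the CTCF core both Myc points, at 55.1 and 54.4, lie to the right of both PCM1 points, at 37.0 and 34.8, and for MEF2 and ERR the PCM1 points lie to the right.

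In promoters, motifs of broadly active factors were commoner in regions higher in Myc. The ETS promoter form CCGGAAG was in 21% of the promoters higher in Myc, 3.09% of those higher in PCM1 and 6.10% of all 43003 promoter regions. Of 2165 shared promoters with it, 674 (31.1%) were higher in Myc and 48 (2.22%) in PCM1, against 14.3% and 6.92% of all shared promoters. The motif of NRF1, an activator of housekeeping genes, gave 27.6% and 2.3% of 1173 promoters, the E-box CACGTG gave 26.2% and 4.24% of 1416, and the E2F letters TTCCCGC, which mark promoters of S phase genes, gave 24.1% and 4.34% of 922. MEF2 again went the other way, with 25 of 620 promoters (4.03%) higher in Myc and 96 (15.5%) in PCM1. The ETS, E-box and E2F letters each contain CG, and promoters higher in Myc had the higher GC content and CpG ratio given above. Motif shares in promoters were not compared within bins of GC content, so the part of composition in them was not tested.

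**Figure D3:**
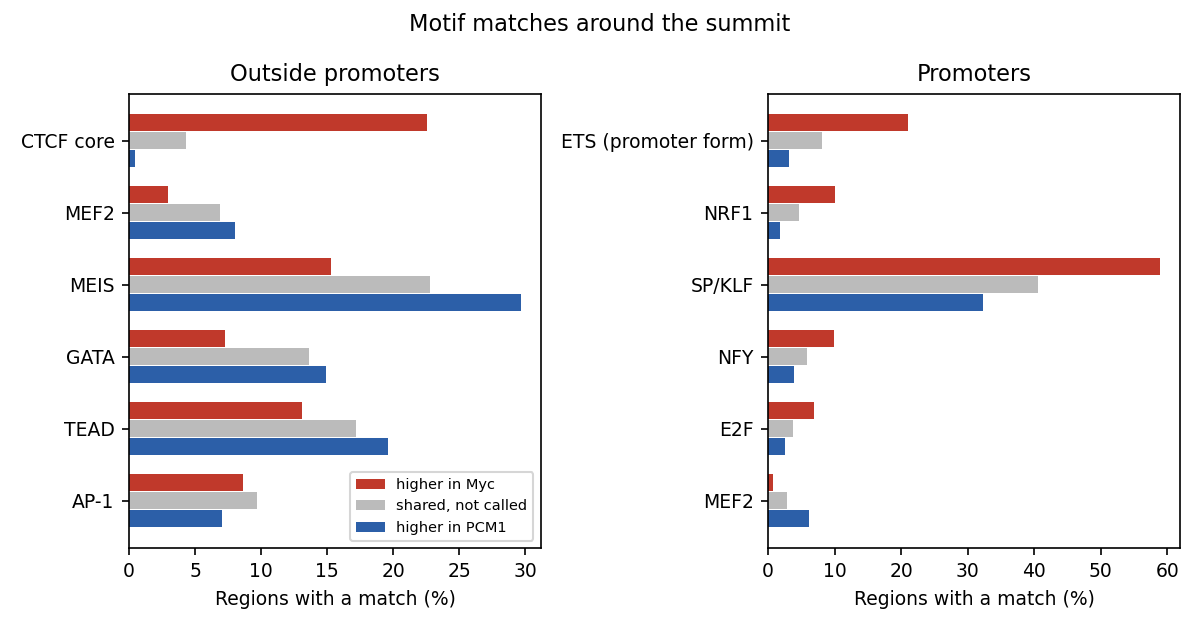
Share of regions with a motif match within the 200 bases around the summit (x axis, percent), outside promoters (left) and in promoters (right), for regions higher in Myc, shared but not called, and higher in PCM1. The CTCF core stands at 22.6% in regions higher in Myc and 0.449% in those higher in PCM1, and the ETS promoter form at 21% and 3.09%.

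For single genes, the promoter region is the strongest region within 1 kb of the TSS, and its list percentile is its rank within the whole peak list of a library, from 100 for the strongest peak to 0 for no peak. Since the Myc lists are longer, the median of the difference, Myc minus PCM1, was 4.19 points over the shared regions and 4.23 points over gene promoters. Differences in list percentile should be read against these values. The list length moves the percentiles of weak peaks more than those of strong peaks, so these values understate the shift at weak promoters. Many single calls were lost under other settings. Of 142 promoters and regions chosen by the rule for names, 138 of them called, 70 lost the call with the GC correction, 107 ranked by the fold, and 138 without the trend. The promoter regions of 12477 protein-coding genes were shared, of which 2918 (23.4%) were higher in Myc and 561 (4.50%) in PCM1. Without Myc replicate 1, 1660 were higher in Myc, and with the correction for GC content 822. Shared regions within a gene or 10 kb to either side of it are called its locus regions. Over all protein-coding genes there were 41045, with 3717 (9.06%) higher in Myc and 3281 (7.99%) in PCM1.

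Genes of the contractile apparatus ranked higher in PCM1. Of 16 cardiomyocyte genes, 13 had a shared promoter region, 7 of these (53.8%) were higher in PCM1 and 0 were higher in Myc by limma, against 4.50% and 23.4% of all genes. The 7 genes are Myh6, Mybpc3, Tnnc1, Tnnt2, Ttn, Myl2 and Actc1, which encode proteins of the thick and thin filaments and the giant protein titin. The median difference over the 13 was -3.81 points of list percentile. Of the 90 locus regions of this list, 43 (47.8%) were higher in PCM1 and 1 in Myc. Its loci also held 13 regions of PCM1 only and 6 of Myc only among 244 of any class. All loci together held 1502 and 9285 among 103691. In bulk nuclei, fewer nuclei of a type and less accessible chromatin per nucleus cannot be told apart.

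Myh6 encodes the main myosin heavy chain of the adult mouse heart. The list percentile of its promoter, at chr14:54966410-54967219, was 88.8 and 92.6 in Myc, 99.0 and 98.8 in PCM1, and 98.9 and 98.7 in Input. Both Myc values lay below those of the other 4 libraries, and the score difference, Myc minus PCM1, was -1.22 ± 0.12 (SE, n = 2 per group, limma adjusted p = 4.91e-05). Inside the gene, 6340 bp from the TSS, lay the region with the sequence shown above. It had list percentiles of 5.76 and 17.5 in Myc, 78.1 and 70.3 in PCM1, and 59.6 and 22.4 in Input (limma adjusted p = 0.00255). Of the 5 shared locus regions of Myh6 4 were higher in PCM1, and 1 further region had a peak only in PCM1.

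Mybpc3 encodes myosin-binding protein C. Its promoter had list percentiles of 84.1 and 87.6 in Myc, 97.7 and 97.0 in PCM1, and 96.7 and 94.4 in Input, the widest difference among the 7 genes (-11.5 points, limma adjusted p = 7.29e-05). The troponin C gene Tnnc1 stood at 90.2 and 92.6 in Myc, 98.3 and 98.5 in PCM1, and 98.6 and 98.5 in Input (adjusted p = 0.000102). The troponin T gene Tnnt2 stood at 92.3 and 93.2 in Myc, 97.7 and 97.9 in PCM1, and 97.8 and 97.3 in Input (adjusted p = 0.000508). In these 3 genes both Input values lay above both Myc values.

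The other 6 shared promoters of the list were not called. Their genes are Actn2, Myl3, Pln, Ryr2, Nppa and Nppb. The promoter of Ryr2, the calcium release channel of the sarcoplasmic reticulum, stood at 91.5 and 92.5 in Myc and at 91.2 and 86.8 in PCM1. Its locus nevertheless held 3 regions higher in PCM1 and 7 of PCM1 only, beside 0 and 2 in the direction of Myc. The region in the first part of the Ryr2 gene, 38185 bp from its TSS, had list percentiles of 18.1 and 11.6 in Myc and of 65.8 and 76.1 in PCM1 (adjusted p = 0.00520). The genes without a shared promoter region were Myh7 and Myl7, with peaks in some libraries, and Tnni3, with none within 1 kb of its TSS.

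This result depended on the value that was ranked. The fold of a peak is its pileup over the background around it, and -log10 q also grows with the pileup. When the ranks were taken from the fold, 0 cardiomyocyte promoters and 0 locus regions of the list were higher in PCM1. The background around the summit was therefore solved from the fold and the p-value of each peak, after the data were seen, and was set relative to the genome-wide background of the same library. At the 13 cardiomyocyte promoters its median was 13.8 and 13.1 in Myc, 19.1 and 20.4 in PCM1, and 13.7 and 14.7 in Input, and at the 90 locus regions 8.81 and 8.77, 15.1 and 14.7, and 10.4 and 10.9. Over all gene promoters it was 5.68 and 5.65 in Myc, 4.59 and 4.78 in PCM1, and 4.74 and 4.63 in Input.

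The same order was seen at single genes. Around the Myh6 promoter the local background was 30.5 and 34.5 times the genome-wide background in Myc, 79.6 and 83.7 times in PCM1, and 54.8 and 54.8 times in Input. For Tnnt2 it was 15.1 and 16.6 in Myc and 28 and 31.3 in PCM1, and for Myl2, the ventricular myosin light chain, 16.5 and 16.1, and 33.9 and 39.1. In these 3 genes the local background was higher in both PCM1 libraries than in both Myc libraries. The fold of the Myh6 promoter itself was 4.69 and 5.37 in Myc and 5.80 and 5.72 in PCM1.

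Genes of calcium handling and ion channels gave 4 promoters higher in PCM1 (26.7%) and 1 higher in Myc among 15 shared promoters. Of their 169 locus regions 50 (29.6%) were higher in PCM1 and 4 in Myc, against 7.99% and 9.06% over all genes. Ranked by the fold, 2 locus regions and 0 promoters were higher in PCM1, with the correction for GC content 27 locus regions, and without Myc replicate 1, 30. The promoter of Cacna1c, the pore of the L-type calcium channel, stood at list percentiles of 95.1 and 96.2 in Myc, 99.4 and 99.4 in PCM1, and 99.1 and 98.3 in Input (limma adjusted p = 9.10e-05). Of its 39 locus regions 14 were higher in PCM1 and 0 in Myc, with 6 of PCM1 only and 1 of Myc only, and its gene body spans 609 kb. Kcnh2, a potassium channel of repolarization, stood at 90.4 and 89.5 in Myc and 97.3 and 96.6 in PCM1 (adjusted p = 0.000364).

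Kcnq1, a potassium channel gene, showed calls in the locus and not in the promoter. Its promoter stood at 73.9 and 61.8 in Myc and 68.8 and 76.0 in PCM1 and was not called (adjusted p = 0.282), while 9 of its 28 shared locus regions were higher in PCM1. The single promoter of the list higher in Myc was that of Atp2a2, the calcium pump of the sarcoplasmic reticulum, at 96.9 and 96.7 in Myc, 89.8 and 91.3 in PCM1, and 98.2 and 92.7 in Input (adjusted p = 0.0154). Its locus had 3 regions higher in PCM1. At Atp2a2 the promoter and other regions of the locus were thus called in different directions.

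Other long genes with many regions higher in PCM1, named after their counts were seen, were Gse1 with 14, Tns1 and Zmiz1 with 11 each, Nav2 with 10, and Casz1 and Rbm20 with 9 each. Rbm20 encodes a splicing factor of titin, and Casz1 a transcription factor of cardiac development. Jph2, which ties the plasma membrane to the sarcoplasmic reticulum, had 7 such regions of 14 shared in its locus of 61.8 kb plus the flanks, and 0 higher in Myc.

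Of 12 shared promoters of cardiac transcription factor genes, 2 (16.7%) were higher in PCM1 and 1 (8.33%) in Myc, on a background of 4.50% and 23.4%. Tbx20, a T-box factor of the heart, had list percentiles of 96.8 and 96.6 in Myc against 98.9 and 98.8 in PCM1 (limma adjusted p = 0.00187), and Gata6 was higher in PCM1 as well (adjusted p = 0.00387). Hand2, a basic helix-loop-helix factor of the right ventricle and the neural crest, stood at 90.3 and 91.1 in Myc, 71.5 and 68.0 in PCM1, and 90.0 and 77.0 in Input (adjusted p = 0.00508). Of 122 locus regions 17 (13.9%) were higher in PCM1 and 2 in Myc. Nkx2-5 itself had no region within 1 kb of its TSS, and 1 of its 2 shared locus regions was higher in PCM1.

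The plot of promoter regions by gene list shows these values for a selection of the called genes.

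**Figure D4:**
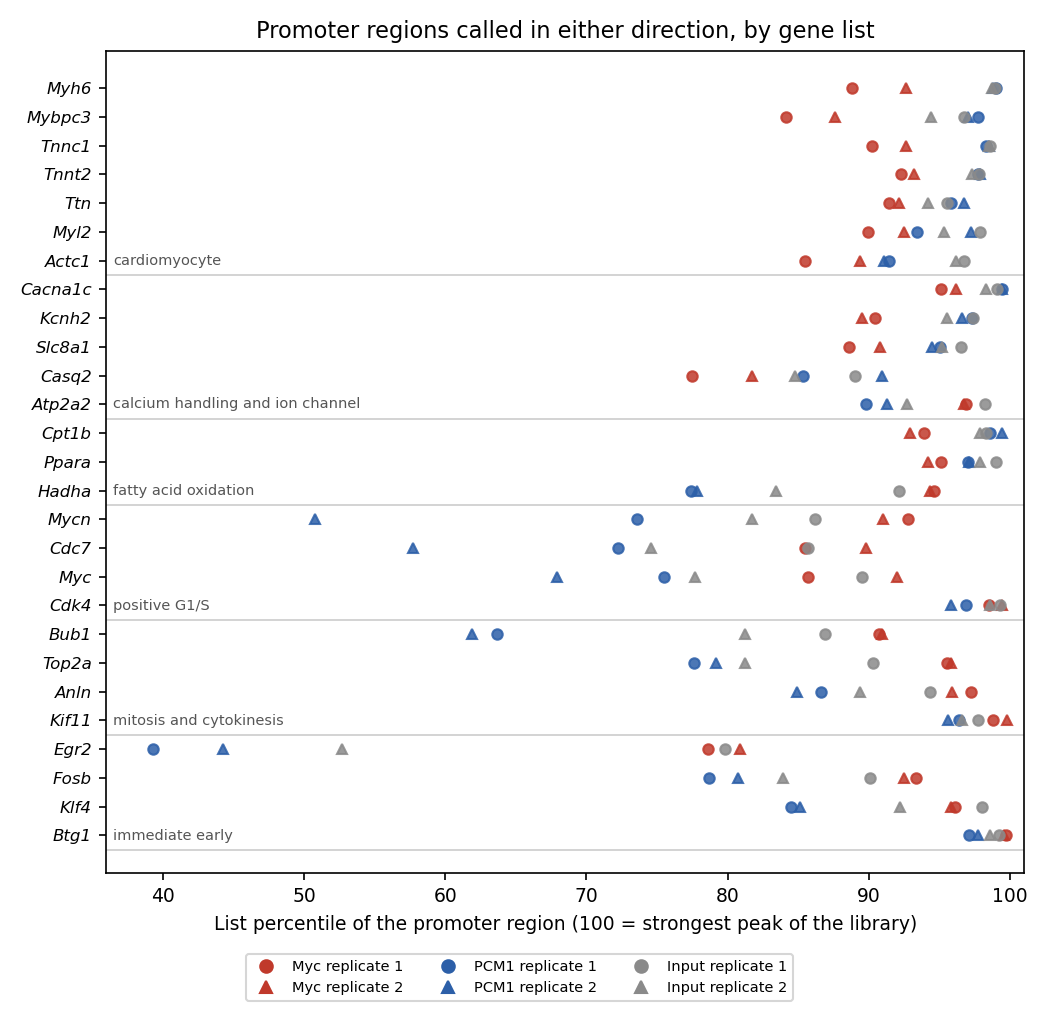
List percentile of the promoter region in each library (x axis, 100 is the strongest peak) for a selection of genes called in either direction, grouped by list (y axis). In the 7 cardiomyocyte genes both Myc points lie to the left of both PCM1 points, as at Myh6 with 88.8 and 92.6 against 99.0 and 98.8. In the selected genes of the lower 3 groups the PCM1 points lie to the left. Cenpa, a mitosis gene called higher in PCM1, is not drawn.

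Among 16 shared promoters of fatty acid oxidation genes 4 (25.0%) were higher in PCM1 and 2 (12.5%) in Myc, against 4.50% and 23.4% of all genes. Cpt1b, which carries fatty acids into the mitochondria of muscle, stood at list percentiles of 93.9 and 92.9 in Myc, 98.6 and 99.4 in PCM1, and 98.3 and 97.9 in Input (limma adjusted p = 0.000102). Ppara, the nuclear receptor that drives fatty acid oxidation genes, stood at 95.1 and 94.2 in Myc and 97.0 and 97.1 in PCM1 (adjusted p = 0.0139), and 4 of its 8 locus regions were higher in PCM1. Acadm was also higher in PCM1 (adjusted p = 0.00749). Hadha and Hadhb, the subunits of the trifunctional protein, share 1 promoter region, which stood at 94.6 and 94.3 in Myc, 77.4 and 77.8 in PCM1, and 92.1 and 83.4 in Input (adjusted p = 0.00127). In glycolysis 1 of 16 shared promoters was called in each direction, Pfkm toward Myc and the muscle enolase Eno3 toward PCM1, with 77.9 and 74.9 in Myc and 89.6 and 90.7 in PCM1 for Eno3 (adjusted p = 0.00138).

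Cell cycle genes had promoters higher in Myc at shares from 12.5% to 30.8% by list, on either side of the 23.4% of all genes. Of 13 shared promoters of genes that promote entry into S phase 4 (30.8%) were higher in Myc and 0 in PCM1, of 15 genes that hold back S phase entry 4 (26.7%) and 1, of 16 mitosis genes 4 (25.0%) and 1, and of 16 replication licensing genes 2 (12.5%) and 0. With the correction for GC content, or ranked by the fold, 0 of the 13 genes that promote S phase entry were higher in Myc, and without Myc replicate 2 or without PCM1 replicate 2, 1 was. Of the mitosis genes 1 was higher in Myc with the correction and 2 ranked by the fold. Mycn, a driver of proliferation in the fetal heart, stood at list percentiles of 92.8 and 91.0 in Myc, 73.6 and 50.8 in PCM1, and 86.2 and 81.7 in Input (limma adjusted p = 0.00280). The Myc gene stood at 85.7 and 92.0 in Myc, 75.5 and 67.9 in PCM1, and 89.5 and 77.7 in Input (adjusted p = 0.0402). The PCM1 replicates of Mycn lay far apart.

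Of the cyclin D genes, the promoters of Ccnd1 and Ccnd2 were not called and that of Ccnd3 was not shared. Among the mitosis genes, the checkpoint kinase gene Bub1 stood at 90.7 and 90.9 in Myc, 63.7 and 61.9 in PCM1, and 86.9 and 81.2 in Input (adjusted p = 0.00137). Top2a, the topoisomerase of dividing cells, stood at 95.5 and 95.8 in Myc, 77.6 and 79.2 in PCM1, and 90.3 and 81.2 in Input (adjusted p = 0.000480). Cenpa, the mitosis gene called toward PCM1, stood at 96.4 and 97.5 in Myc, 98.7 and 98.0 in PCM1, and 96.6 and 94.5 in Input (limma adjusted p = 0.03). Cdkn2a, from the list of genes that hold back S phase entry, had the widest difference of the shared cell cycle promoters, with 86.5 and 86.7 in Myc, 44.2 and 42.4 in PCM1, and 80.0 and 63.6 in Input (adjusted p = 0.00223).

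Replication-dependent histone genes, a group chosen after its values were seen, had 55 genes with a shared promoter region, in 38 regions since neighbouring genes share them. Of the 55 genes 32 (58.2%) were higher in Myc and 1, Hist1h1c, was higher in PCM1, against 23.4% and 4.50% of all genes. Genes that share a region carry the same call, so a shared region is counted more than once here. Since the copies are nearly identical, reads can be split among them in mapping, so single members are uncertain. The region shared by Hist1h2bl, Hist1h2ai and Hist1h3h stood at list percentiles of 92.6 and 94.0 in Myc, 36.7 and 65.1 in PCM1, and 84.9 and 73.9 in Input (limma adjusted p = 0.000608). Of 58 locus regions 27 (46.6%) were higher in Myc, against 9.06% over all genes. Corrected for GC content 14 promoters were higher in Myc, ranked by the fold 0, without Myc replicate 1 21, and without Myc replicate 2 18.

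Immediate early genes respond to growth factors and stress. Of 15 shared promoters 6 (40%) were higher in Myc and 0 in PCM1, against 23.4% and 4.50% of all genes. With the correction for GC content 1 was higher in Myc, ranked by the fold 0, without Myc replicate 1 2, and without Myc replicate 2 3. Of the 17 genes of the list with any promoter peak, Fosl1 and Egr3 had one in both Myc libraries and in neither PCM1 library. Over all genes this held for 429 of 14573. Egr2, a zinc finger factor, stood at 78.6 and 80.9 in Myc, 39.3 and 44.3 in PCM1, and 79.8 and 52.7 in Input (limma adjusted p = 0.0267). Klf4 stood at 96.1 and 95.8 in Myc, 84.5 and 85.1 in PCM1, and 98.0 and 92.2 in Input (adjusted p = 0.00254). Fos was not called (adjusted p = 0.0623), with 90.1 and 91.3 in Myc and 74.9 and 81.5 in PCM1.

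Few markers of the other cell types of the heart were called. Over all genes 23.4% of the shared promoters were higher in Myc and 4.50% in PCM1. The shared promoters of these lists had lower median list percentiles than those of all genes, and calls were rarer among weak regions, as given above. Few calls are therefore not a result about these cell types. Of 16 fibroblast genes 8 had a shared promoter, and 0 was called in either direction. The median difference was 18.2 points of list percentile toward Myc, beside 4.23 points over all genes. For the 3 shared promoters of brain or liver genes, listed as unrelated tissues, the median difference was 17.7 points toward Myc. The median list percentiles of the fibroblast promoters were 71.9 and 76.3 in Myc, against 93.6 and 93.6 over all genes. Of the 15 fibroblast genes with any promoter peak, Pdgfra, Lum and Dpt had one in both Myc libraries and in neither PCM1 library. Over all genes this held for 429 of 14573. The loci of the whole list held 20 regions of Myc only and 2 of PCM1 only among 103 of any class. All loci together held 9285 and 1502 among 103691. Pdgfra, a growth factor receptor of fibroblasts, stood at 69.7 and 53.9 in Myc, 0.0 and 0.0 in PCM1, and 60.3 and 0.0 in Input. Col1a1 stood at 87.9 and 87.6 in Myc, 79.7 and 71.5 in PCM1, and 86.9 and 74.2 in Input (limma adjusted p = 0.181). The promoter of Col3a1 had a peak in both Myc libraries and in PCM1 replicate 1 only.

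Of 16 endothelial and endocardial genes 9 had a shared promoter, with a median difference of 12.9 points toward Myc, and the only call was Robo4 toward PCM1. This difference was smaller than the 17.7 points of the brain or liver genes. The median list percentiles of the 9 promoters were 73.5 and 73.8 in Myc, against 93.6 and 93.6 over all genes. Kdr, a receptor of vascular growth factor, stood at 84.9 and 86.0 in Myc, 68.5 and 65.3 in PCM1, and 83.5 and 54.2 in Input (adjusted p = 0.0661). Tek, the receptor of the angiopoietins, stood at 58.2 and 61.9 in Myc, 4.33 and 29.2 in PCM1, and 46.1 and 18.8 in Input (adjusted p = 0.123). Neither of these 2 genes passed the test. Among the 4 libraries Pecam1 had a promoter peak in Myc replicate 2 only. The loci of the list held 15 regions of Myc only and 1 of PCM1 only among 218 of any class. All loci together held 9285 and 1502 among 103691.

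Among 13 shared promoters of smooth muscle and pericyte genes, Myh11 was higher in Myc, and Des, which cardiomyocytes also express, and Smtn were higher in PCM1. Myh11, the smooth muscle myosin, stood at list percentiles of 85.4 and 88.2 in Myc, 72.8 and 60 in PCM1, and 90.1 and 82.7 in Input (limma adjusted p = 0.0436), while Acta2 was not called (adjusted p = 0.105), with 79.5 and 78.9 in Myc and 81.2 and 85.7 in PCM1. Of the epicardial markers 8 had a shared promoter, and only Nkain4 was called, toward PCM1. Wt1 stood at 63.5 and 69.3 in Myc and 71.9 and 58.9 in PCM1, so its groups overlapped, and the promoter of Upk1b was not shared. Immune, erythroid, and Schwann and neural genes had 1, 4 and 9 shared promoters, of which 0, 1 (Klf1) and 1 (Ncam1) were called, both toward Myc. Among 16 brain or liver genes, listed as unrelated tissues, 3 promoters were shared and 1, Snap25, was called toward Myc.

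Pcm1 and the other centrosome and nuclear envelope genes bear on the antigens used. The promoter of Pcm1 stood at list percentiles of 98.5 and 99.2 in Myc, 96.6 and 95.7 in PCM1, and 97.8 and 96.8 in Input, and it was higher in Myc (limma adjusted p = 0.0193), although on the log2 fold its difference was -0.05. That of Sun1 stood at 98.7 and 98.7 in Myc, 99.0 and 98.5 in PCM1, and 99.3 and 98.6 in Input and was not called (adjusted p = 0.417). Of the 15 shared promoters of this list 4 (26.7%) were higher in Myc, near the share of all genes, and 0 in PCM1.

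**Figure D5:**
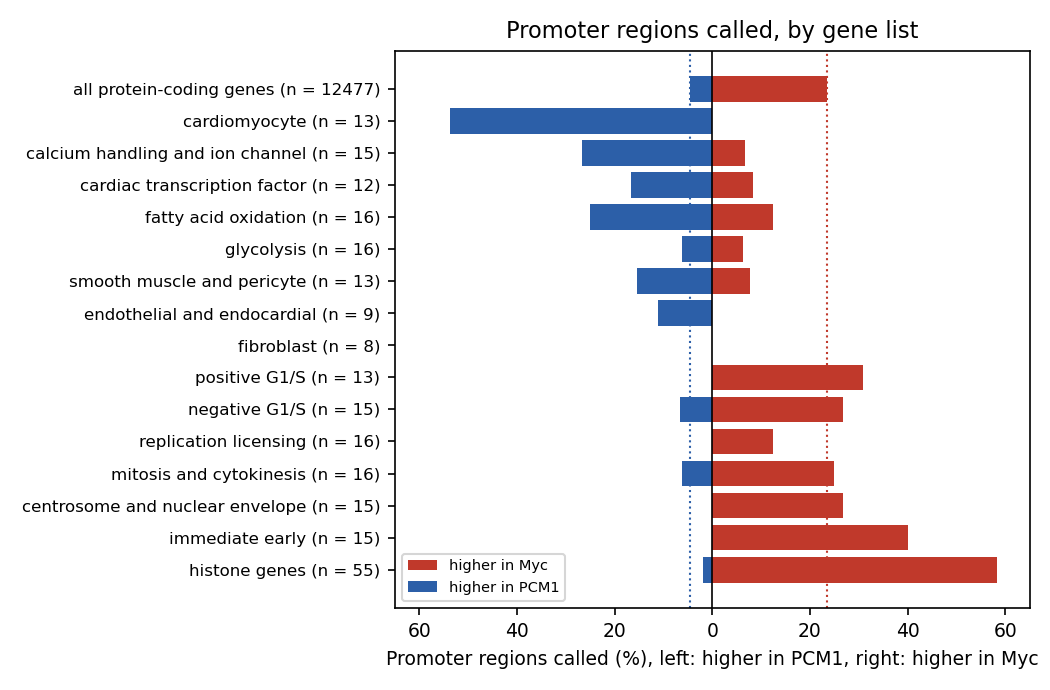
Share of the shared promoter regions of each gene list (y axis, with the number of promoters) called higher in Myc (right) or in PCM1 (left), in percent, with dotted lines at the shares of all protein-coding genes, 23.4% and 4.50%. The cardiomyocyte bar reaches 53.8% toward PCM1 and 0% toward Myc, and the histone bar 58.2% toward Myc.

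The largest promoter difference in list percentile toward Myc was at Snrpb2, a protein of the spliceosome, which stood at 91.8 and 84.9 in Myc, 4.6 and 12.8 in PCM1, and 74.3 and 52.4 in Input (limma adjusted p = 0.000508). The shared promoter of Fastkd5, a mitochondrial RNA protein, and Ubox5 stood at 85.2 and 87.7 in Myc, 18.2 and 11.8 in PCM1, and 78.8 and 65.5 in Input (adjusted p = 0.000859). In both regions the 2 PCM1 values lay below those of the other 4 libraries. Nbdy, Lrif1, Prpf18, Pcdh12 with Rnf14, Tmem229b, Sgsm1, Wdr31 and Nkap complete the 12 genes with the largest differences toward Myc, with differences from 61.8 to 66.6 points.

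In the direction of PCM1 the largest promoter differences were smaller. Angpt2, an angiopoietin of the endothelium, stood at 43.8 and 1.94 in Myc, 71.7 and 75.0 in PCM1, and 60.6 and 31.0 in Input (adjusted p = 0.0119). Xirp1, an actin-binding protein of the intercalated disc, stood at 67.3 and 57.1 in Myc, 83.7 and 86.5 in PCM1, and 85.7 and 66.1 in Input (adjusted p = 0.00247). Myh8, the perinatal skeletal myosin, stood at 53.8 and 36.4 in Myc and 73.0 and 70.0 in PCM1 (adjusted p = 0.0333). The others were Zfp750, Prr29, Npb, Gm13090, Evpl, Cabp2, Lhcgr, Card9 and Rhbdl1. Prr29 stood at 23.4 in Myc replicate 1 and 66.7 in Myc replicate 2, and at 83.5 and 84.7 in PCM1. When either PCM1 library was left out, the score difference of its promoter turned to 0.55 and 0.43, toward Myc. The regions were then merged anew and the strongest within 1 kb was chosen anew, so these values can belong to a different region.

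Among regions over 3 kb from the TSS of any protein-coding gene, the one nearest to Ppp6c, 146611 bp from its TSS, stood at list percentiles of 91.0 and 92.1 in Myc, 15.4 and 7.27 in PCM1, and 88.6 and 82.0 in Input (limma adjusted p = 0.000164). The fold over the local background was 22.0 and 23.6 in Myc against 4.55 and 4.2 in PCM1. The region nearest to Cysltr2, with the CTCF core shown above, stood at 86.7 and 87.8 in Myc, 7.32 and 23.9 in PCM1, and 82.9 and 69.3 in Input (adjusted p = 0.000988). At both regions the Input values lay near those of Myc. Of the 12 regions with the largest differences toward Myc, 6 were distal intergenic by the categories above, 1 lay in an intron and 1 in a 5' UTR. The remaining 4 counted as promoters because the categories use the transcripts of all gene types.

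Toward PCM1, 6 of the 12 regions lay in introns by these categories, that of Ryr2 among them, while the region inside Myh6 counted as a promoter. The region inside Rptor, a subunit of the kinase complex mTORC1, stood at 17.5 and 23.4 in Myc, 79.6 and 82.5 in PCM1, and 64.8 and 53.0 in Input (limma adjusted p = 0.00104). The region inside Lmod1, an actin nucleator of smooth muscle, stood at 32.1 and 3.19 in Myc and 78.6 and 76.9 in PCM1 (adjusted p = 0.00320). The region inside Csnk1g2 holds the MEF2 motif and stood at 4.82 and 13.8 in Myc and 68.0 and 68.3 in PCM1 (adjusted p = 0.00446). None of the 12 regions holds the CTCF core, and of the 12 toward Myc only that nearest to Cysltr2 does. The core was in 3.68% of all regions outside promoters, so these small sets show no contrast.

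The strongest regions of Myc only lay near Parva, Gcm1, Tnni3, Vps26a and Gsto2, with list percentiles between 85.1 and 90.4 in the Myc libraries. The region near Parva, inside Mical2, had folds of 17.7 and 15 in Myc and of 10 and 7.19 in Input, and the regions near Parva and Vps26a hold the CTCF core. The strongest regions of PCM1 only lay near Col19a1, Ube2l3, Myom1, Ahdc1 and Otof. The one near Myom1, which encodes a protein of the sarcomeric M band, holds the motifs of MEF2, GATA and MEIS and stood at 74.4 and 71.9 in PCM1. The region near Col19a1 stood at 99.9 and 100 in PCM1 with folds of 35.8 and 38.4, and had no peak in Input. Over its 334 bp it is 99.7% identical to the mitochondrial genome, so reads of mitochondrial DNA and of this nuclear copy can be confused in mapping.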

How the data were processed

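Omni-ATAC-Seq libraries of postnatal day 1 hearts, 2 each for Myc, PCM1 and Input, were used. Per the paper's methods and the submitters' processing notes, the authors used fastq-mcf for quality trimming and Bowtie2 2.3.3.1 for alignment to mm10, marked duplicates with Picard 2.2.1, removed blacklisted regions with bedtools 2.7.1, shifted alignments for Tn5 and called peaks per library with MACS2 2.1.0.20160309 at a q-value of 0.05. In the deposited peak lists the authors' fold is the ratio of summit pileup over local background, and the other columns used are the authors' -log10 values of p and of q. Without read counts in the lists, no count model was used and depth was taken from the genome-wide background.

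Peaks of the 4 libraries were merged with bedtools 2.31.1 (overlap of 1 bp), and each region took the strongest peak of each library. Scores over the shared regions were fitted with limma 3.58.1 (R 4.3.3, empirical Bayes with a mean-variance trend, prior degrees of freedom 15.2), threshold 0.05 after Benjamini-Hochberg adjustment over 54069 regions, two-sided. Pileup and local background of each summit were solved from its fold and p-value, which gave a solution for 100.0% of summits in each library. GENCODE M21 on GRCm38 (mm10) gave genes and categories, in the order that ChIPseeker uses, and 23 motifs were searched within 100 bases of the summit. The mm10 sequence was compared with the mitochondrial genome by blastn 2.17.0. The members, the 19 gene lists and the motifs were chosen with earlier results of these data known. Genes named are the study's markers with Nkx2-5, Pcm1 and Sun1, in each direction the 12 promoters and 12 distal regions with the largest difference and the 5 strongest regions of 1 group, and list members that were called. List members named without a call, and the long genes named by their number of regions, were chosen after their values were seen.

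The fit was tested on simulated data. Alternatives were a GC correction, the replicate block, ranks of the fold, log2 fold, no trend, all 6 libraries, a q-value of 0.01, equal peak numbers, 500 bp windows, other overlaps and promoter widths, and each library left out. Some results are not reported here.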

Additional observations from a re-analysis of the deposited data

How the results depend on the processing

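With the GC correction 1545 regions were higher in Myc and 1773 in PCM1, with the GC correction and replicate block 2456 and 2667, ranked by the fold 893 and 386, on the log2 fold 1162 and 1526, and without the mean-variance trend 0 and 0. Leaving out 1 library at a time gave 1877 to 6237 and 2582 to 4251. For regions of Myc only and of PCM1 only, equal peak numbers gave 7325 and 4279, and leaving out 1 library 22261 to 31353 and 3714 to 11050, where fewer libraries define a class. All 6 libraries in the fit, a q-value of 0.01, 500 bp windows and equal peak numbers kept the counts of called regions within 1.5 times. Gene promoters higher in Myc and PCM1 numbered 822 and 333 with the GC correction, and 420 and 70 ranked by the fold.

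The replicate numbers did not pair the samples: the deviations of same-numbered libraries correlated with r = 0.00691 over regions. With the number as a replicate block 5597 regions were higher in Myc and 5076 in PCM1, among them all 4373 and 4003 of the fit without the block.

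Of the regions higher in Myc and PCM1, 1538 and 1670 were also called after the GC correction, 858 and 362 ranked by the fold. Ranked by the fold, 129 and 6 differed in the opposite direction, and on the log2 fold 279 and 2. Of the 142 single promoters and regions chosen by the rule for names, the call was lost for 70 with the GC correction, 107 ranked by the fold, 88 on the log2 fold, 138 without the trend, and 37 and 48 without Myc replicate 1 and 2. Score differences of single promoters, Myc minus PCM1, turned on the log2 fold for Pcm1 (-0.05), Fbxw7 (-0.07), Mcm3 (-0.00), Cep290 (-0.11) and Btg1 (-0.07), and ranked by the fold for Btg1 (-0.04). With a 3 kb promoter window they turned for Pcdh12 and Rnf14 (-0.10), Ncam1 (-0.61) and Junb (-0.25). The fit was unchanged there, so these values belong to a different region, the strongest in the wider window. Without PCM1 replicate 1 or 2 the score difference of Prr29 was 0.55 and 0.43, in a range from -2.31 to 0.55 over the libraries left out. Its promoter region was chosen anew each time and can be a different one. The cause of the changes on the log2 fold and ranked by the fold was not tested. Depth limits weak regions most, since a region without a peak in a library has no value there.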
